A study of Homo sapiens with 6 samples.

Results

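The response of A549 and H1975 to AL-X is described here from 4 of the study's 6 libraries: A549 with DMSO, A549 with AL-X, H1975 with DMSO and H1975 with AL-X. Both are human lung adenocarcinoma lines, H1975 with mutant EGFR, and the labels give the genotype as WT for each. AL-X is the study's code for 9α,11α-dihydroxy-kaurenoic acid, a kaurane diterpenoid, used at 10 µg/mL for 48 h, with the solvent DMSO as control. Each line gave 1 library per treatment, so no value has a replicate error, and the libraries were paired by line. HCC827, the third line, enters only where it is named. These lines were put together because their responses were already known to be alike. What they share under AL-X is therefore described without a test, and a difference between them cannot be tested with 1 library each.

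Stress genes of several kinds recur below. Heat shock genes encode chaperones that refold or hold damaged proteins, and are switched on by heat shock factors when unfolded proteins build up. Immediate early genes, such as FOS and EGR1, encode transcription factors and regulators made within minutes of a stimulus from factors already present in the cell, and their mRNAs are short-lived. The integrated stress response slows general translation through phosphorylated eIF2α while favouring ATF4 and its targets, among them PPP1R15A, whose product helps to remove that phosphate.

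The promoters of 6 genes that were much higher with AL-X in both lines are printed because each holds letters of a searched promoter element, shown in capitals. They are RefSeq sequences on GRCh38.p14, 300 bases each, from 250 bases before to 50 bases after the start, 5′ to 3′ in the direction of the gene. HSPA6 (chr1:161524290-161524589, plus strand) and HSPA8 (chr11:123062087-123062386, minus strand) hold a heat shock element, searched as GAA, TTC and GAA each set apart by 2 free bases, on both strands.
HSPA6: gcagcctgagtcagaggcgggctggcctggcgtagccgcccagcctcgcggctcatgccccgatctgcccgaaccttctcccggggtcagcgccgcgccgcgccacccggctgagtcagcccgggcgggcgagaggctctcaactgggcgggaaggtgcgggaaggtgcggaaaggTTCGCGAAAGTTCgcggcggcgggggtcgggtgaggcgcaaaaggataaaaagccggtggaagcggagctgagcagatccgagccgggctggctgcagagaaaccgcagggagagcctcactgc
HSPA8: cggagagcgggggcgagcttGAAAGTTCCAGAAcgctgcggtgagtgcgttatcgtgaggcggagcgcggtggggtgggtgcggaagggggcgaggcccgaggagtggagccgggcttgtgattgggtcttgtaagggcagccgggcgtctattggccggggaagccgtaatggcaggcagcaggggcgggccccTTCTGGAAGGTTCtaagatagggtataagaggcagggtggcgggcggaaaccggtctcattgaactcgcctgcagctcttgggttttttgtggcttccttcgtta
The match in HSPA6 begins 74 bases before the start, and those in HSPA8 begin 230 and 55 bases before it. FOS (chr14:75278578-75278877, plus strand) and FOSB (chr19:45467746-45468045, plus strand) hold the TATA box letters TATAAA.
FOS: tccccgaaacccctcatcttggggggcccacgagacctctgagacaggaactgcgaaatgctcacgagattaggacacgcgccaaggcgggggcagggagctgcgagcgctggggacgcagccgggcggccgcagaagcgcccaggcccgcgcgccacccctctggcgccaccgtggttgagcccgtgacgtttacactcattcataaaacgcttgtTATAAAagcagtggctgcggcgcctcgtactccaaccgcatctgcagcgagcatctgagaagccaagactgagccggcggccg
FOSB: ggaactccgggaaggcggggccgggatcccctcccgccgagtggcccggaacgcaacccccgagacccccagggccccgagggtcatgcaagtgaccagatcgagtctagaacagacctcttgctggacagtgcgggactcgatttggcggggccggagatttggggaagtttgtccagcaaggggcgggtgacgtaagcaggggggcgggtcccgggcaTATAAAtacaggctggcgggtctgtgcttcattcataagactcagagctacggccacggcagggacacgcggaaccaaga
These begin 33 and 30 bases before the start. EGR1 (chr5:138465229-138465528, plus strand) holds 2 serum response elements (CArG boxes), at 105 and 83 bases before the start. PPP1R15A (chr19:48872171-48872470, plus strand) holds a cAMP response element, TGACGTCA, at 58 bases before it.
EGR1: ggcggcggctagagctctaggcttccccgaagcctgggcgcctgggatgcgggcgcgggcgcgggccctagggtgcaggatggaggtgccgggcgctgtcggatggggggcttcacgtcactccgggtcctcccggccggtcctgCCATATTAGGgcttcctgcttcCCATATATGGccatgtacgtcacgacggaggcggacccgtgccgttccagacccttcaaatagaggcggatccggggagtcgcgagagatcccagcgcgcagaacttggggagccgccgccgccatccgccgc
PPP1R15A: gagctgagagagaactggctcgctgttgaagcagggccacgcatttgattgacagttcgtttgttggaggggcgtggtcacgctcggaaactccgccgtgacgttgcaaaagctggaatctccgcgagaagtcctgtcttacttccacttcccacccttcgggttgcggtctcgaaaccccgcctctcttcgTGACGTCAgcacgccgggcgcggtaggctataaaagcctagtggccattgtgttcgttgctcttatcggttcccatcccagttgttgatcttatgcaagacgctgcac

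Library totals ran from 104648304 to 121552821 counts, and fewer genes were detected with AL-X than with DMSO in either line (24046 against 26979 in A549 and 24278 against 27163 in H1975). The mitochondrial share of counts was 6.87% with DMSO and 0.0201% with AL-X in A549, against 6.41% and 0.0535% in H1975. The heat shock genes HSPA1A, HSPA1B, HSPA8 and HSP90AA1 together took 0.357% and 3.82% of counts in A549 and 0.490% and 2.75% in H1975. Epithelial identity differed between the lines under DMSO: KRT7 stood at 901 and 981 CPM (counts per megaread of effective library size) and KRT18 at 1287 and 373 CPM, while EPCAM stood at 2.52 CPM in A549 and 353 CPM in H1975. Of the epithelial markers looked at, KRT19, CLDN4 and CLDN7 were also under 5 CPM in A549. The 8 immune markers listed summed to 19.5 and 20.5 CPM in A549 and 75.6 and 51.4 CPM in H1975, most of it CD68, at 12.3 and 13.6 CPM and 71.5 and 49.6 CPM. CD14 reached 5.96 CPM and ITGAM 2.02 CPM, while PTPRC, CD3E and NKG7 had 0 counts in all 4 libraries. The 7 fibroblast markers summed to 6.34 and 0.985 CPM in A549 and 13.0 and 8.68 CPM in H1975, most of it COL1A1, with COL3A1, DCN and LUM under 0.1 CPM. The 6 endothelial markers summed to 0.240 and 0.811 CPM in A549 and 6.36 and 1.64 CPM in H1975. The part of such cells or genes in the results was not tested.

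Values are given as CPM scaled by TMM, which assumes that most genes do not differ, and as log2 folds of AL-X against DMSO within a line. A gene was considered if it reached at least 5 CPM in the higher library of each line, which 10491 genes did, and it was called higher or lower at 2-fold or more. When library totals alone were used for scaling, the median log2 fold of the considered genes moved by -0.82 in A549 and -0.50 in H1975. The share of shared calls that were higher was 57.9% with TMM and 19.3% with library totals. Folds below are on the TMM scale, and where a list's printed median changes sign on the other scale, both values are given.

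A549 and H1975 shared 1518 genes that were higher with AL-X, 14.5% of the genes considered, and 1102 that were lower, 10.5%. Another 61 genes, 0.581%, were higher in one line and lower in the other. These shares of all considered genes are the background for the list counts below. In A549 alone, 27.0% of considered genes were higher and 32.0% lower, and in H1975 19.2% and 13.3%. Of the genes higher in A549, 53.6% were also higher in H1975, and of those higher in H1975, 75.5% were also higher in A549. For genes that were lower, these shares were 32.8% and 79.1%. Across the 10491 genes the folds of the lines had a Pearson r of 0.749 and a Spearman rho of 0.719, and r was 0.738 without the mitochondrial genome. Genes are not independent replicates, and this likeness is why the lines were set side by side. A549 had the wider spread, with an SD of log2 folds of 2.05 against 1.20, and 1257 of the 1518 shared higher genes and 914 of the 1102 shared lower genes had the larger fold there. The median log2 fold of shared higher genes was 2.12 in A549 and 1.45 in H1975, and that of shared lower genes was -2.93 and -1.59. At the edge of the rule, the smaller of a gene's 2 log2 folds was 1.00 for the nearest gene on either side.

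**Figure D1:**
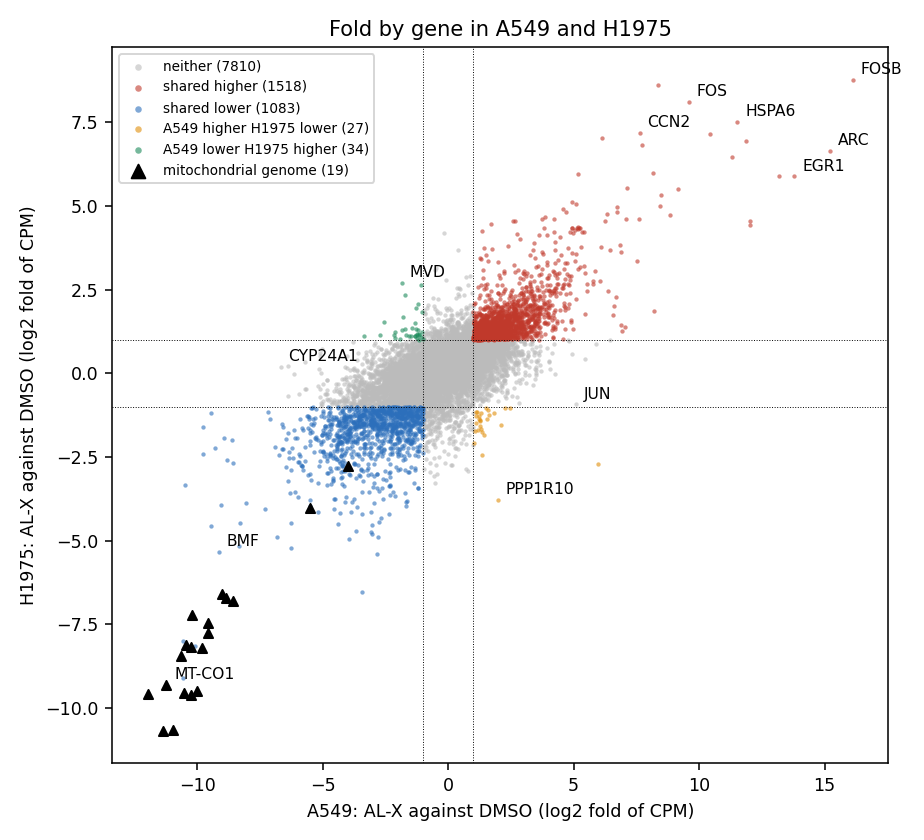
Log2 fold of AL-X against DMSO for each of the 10491 considered genes, A549 on the horizontal axis and H1975 on the vertical axis, with dotted lines at 2-fold and the 19 considered genes of the mitochondrial genome as triangles. Most coloured points lie in the upper right (1518 shared higher) and lower left (1083 shared lower outside the mitochondrial genome), and 61 lie in the other corners.

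A fit over the 4 libraries with the line as a block (edgeR quasi-likelihood test, Benjamini-Hochberg adjustment over 20734 genes) called 127 genes higher (0.613%) and 57 lower (0.275%). It left 1 residual degree of freedom. Since the pair of lines was chosen on these same folds, the calls are a count only and nothing below rests on them. The numbers change by far more than 1.5 times with the tool and the scaling, as set out under the processing.

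Among the 14 shared higher genes with the largest smaller fold, several are of the immediate early class. FOSB (ENSG00000125740, chr19:45467995-45475179), an AP-1 subunit, led the 14 and went from 6 counts with DMSO to 365191 with AL-X in A549 and from 37 to 12968 in H1975. Scaled, these are 0.0465 and 4554 CPM, and 0.261 and 121 CPM. FOSB was near the floor in both DMSO libraries and well expressed in both AL-X libraries, with log2 folds of 16.12 (counting interval 15.46 to 18.02) and 8.76 (8.39 to 9.36). Exact binomial 95% intervals such as these cover counting error only. FOS, its better known relative, was at 4.78 and 3703 CPM in A549 and 3.22 and 888 CPM in H1975, giving log2 folds of 9.59 and 8.10. EGR1, a zinc finger factor, was at 0.372 and 5509 CPM in A549 and 28.5 and 1676 CPM in H1975. Its 2 DMSO libraries differed from each other by more than its 2 AL-X libraries did, so that the log2 fold was 13.79 in A549 and 5.88 in H1975. ARC, a cytoskeletal regulator known from neurons, stood at 0.0543 and 2748 CPM in A549 and 0.338 and 35.6 CPM in H1975. It was silent or nearly so with DMSO in both lines, and its AL-X level was much higher in A549.

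RASD1, a Ras-like GTPase and also among the 14, was at 0.155 and 649 CPM in A549 and 2.21 and 275 CPM in H1975. RGS2, which speeds GTP hydrolysis by G proteins, was at 4.99 and 346 CPM in A549 and 0.451 and 61.1 CPM in H1975. SOCS1, an inhibitor of cytokine receptor signalling, was at 0.442 and 96.1 CPM in A549 and 1.89 and 216 CPM in H1975. In these 3 genes both AL-X libraries lay above both DMSO libraries, and RGS2 was the only 1 of them with the larger fold in H1975 (6.11 in A549, 7.03 in H1975). GADD45B, a stress sensor of the growth arrest family, was at 19.4 and 5611 CPM in A549 and 26.8 and 1689 CPM in H1975. SGK1, a kinase that controls ion transport and survival, was at 8.66 and 1208 CPM in A549 and 3.78 and 177 CPM in H1975. CCN2, a secreted matricellular protein and a target of YAP, was at 5.03 and 1001 CPM in A549 and 1.73 and 252 CPM in H1975. Of the 14 shared higher genes with the largest smaller fold, CCN2 had folds among the closest in size, 7.63 and 7.17 on the log2 scale.

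Of 26 immediate early genes listed, 20 were considered, and 15 of these were shared higher and 0 shared lower, and their median log2 folds were 4.58 (A549) and 1.99 (H1975). All genes considered had medians of -0.10 and 0.23. DUSP1, the phosphatase that switches off MAP kinases, had log2 folds of 3.78 and 3.56, and CCN1, another matricellular protein, 4.71 and 4.82. ZFP36, which speeds the decay of AU-rich mRNAs, had 6.08 and 3.78. Other AP-1 genes had unlike folds in the 2 lines. JUN was at 23.6 and 812 CPM in A549 but 85.4 and 44.7 CPM in H1975. JUNB was at 30.5 and 344 CPM in A549 and 101 and 108 CPM in H1975, and FOSL1 at 11.2 and 984 CPM and 199 and 396 CPM. All 3 had lower DMSO levels in A549 than in H1975, and none was called in H1975. JUND differed alike in both, with log2 folds of 1.91 and 2.05. NR4A1, an orphan nuclear receptor, was the list's only gene called in opposite directions, at 40.2 and 192 CPM in A549 and 12.6 and 6.11 CPM in H1975. FOSL1 missed the call in H1975 by little, with log2 folds of 6.46 and 0.99. These differences between the lines were not tested.

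**Figure D2:**
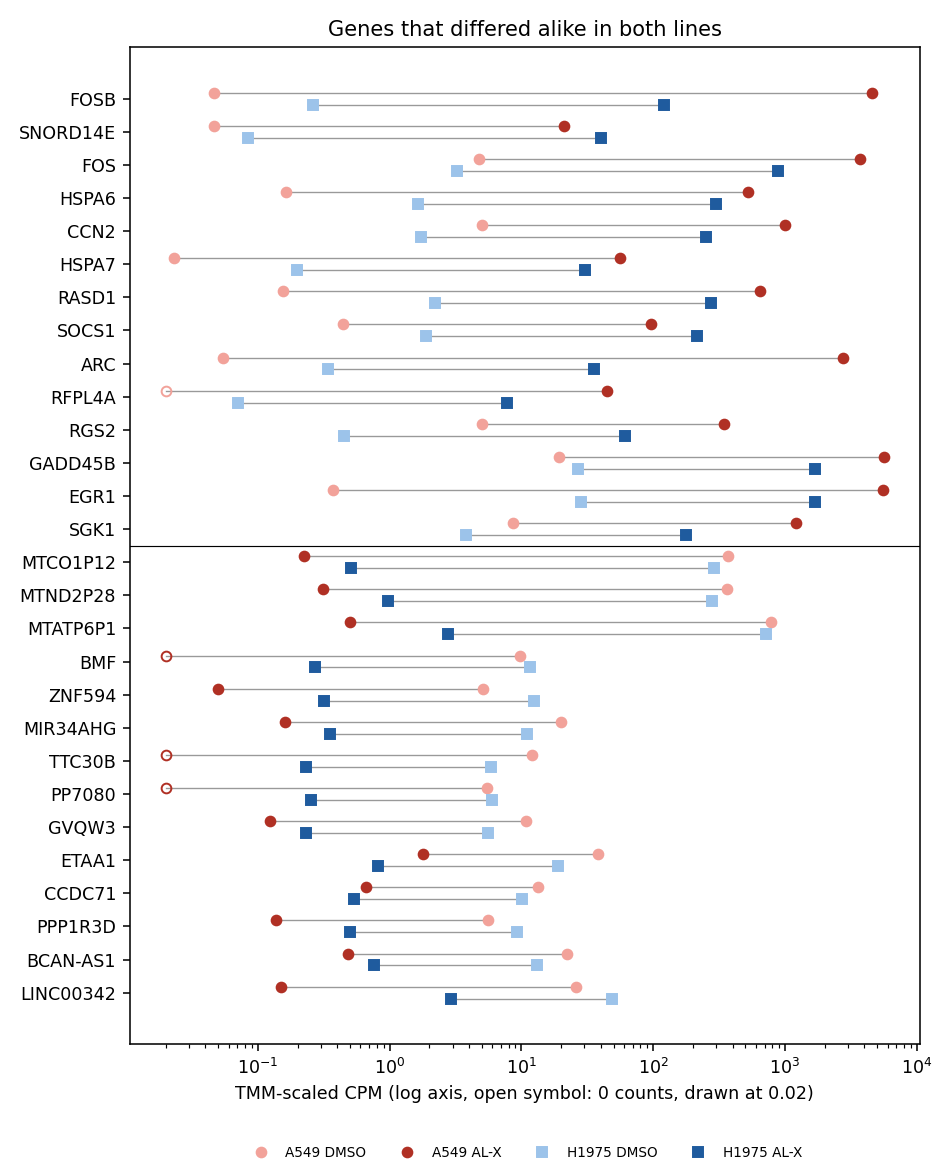
TMM-scaled CPM on a log axis in the 4 libraries for the 14 shared higher (above the line) and 14 shared lower genes outside the mitochondrial genome with the largest smaller fold. Circles are A549 and squares H1975, pale for DMSO and dark for AL-X, and open symbols had 0 counts. For every gene drawn, both AL-X libraries lie on the same side of both DMSO libraries.

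Heat shock genes were shared higher in nearly their whole list. Of 20 listed, 19 were considered and 17 were shared higher, with log2 medians of 3.27 (A549) and 2.06 (H1975), which library totals put at 2.45 and 1.56. HSPA6, a strictly inducible Hsp70 with a heat shock element in its promoter, was at 0.163 and 528 CPM in A549 and 1.63 and 299.7 CPM in H1975. Its log2 folds were 11.52 and 7.51. HSPA1A, the main inducible Hsp70, was at 226 and 17158 CPM in A549 and 218 and 5098 CPM in H1975, and HSPA1B, whose near-identical sequence may share reads with it, at 198 and 15744 CPM and 201 and 5429 CPM. DMSO levels of HSPA1A and HSPA1B were alike in the 2 lines, and the AL-X levels were higher in A549. HSPA8, the constitutive Hsp70, was at 1139 and 17458 CPM in A549 and 849 and 8455 CPM in H1975. Co-chaperones followed: DNAJB1, which loads clients onto Hsp70, had log2 folds of 5.33 and 4.23, and BAG3, which passes clients to autophagy, 5.52 and 2.45. HSPH1, a nucleotide exchange factor, had 4.35 and 2.97. HSP90AA1, the inducible Hsp90, had 2.33 and 2.06, HSP90AB1, the constitutive one, 2.76 and 1.60, and AHSA1, which activates their ATPase, 3.27 and 2.02. Outside the call stood HSPB8, at 0.63 and 0.77, and HSPA4L, at -0.37 and -1.35. HSPA7, annotated as a pseudogene of HSPA6, had 3 counts with DMSO and 4469 with AL-X in A549 (log2 fold 10.42, counting interval 9.68 to 13.50) and 28 and 3263 in H1975. Reads of HSPA6 and HSPA7 may be shared, since how such reads were assigned is not given in the sources used here. SNORD14E, a small nucleolar RNA inside an intron of HSPA8, had log2 folds of 8.37 and 8.61, and its counts of up to 4290 cannot be told apart from reads of its host.

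Integrated stress response genes had like medians on the TMM scale, 1.94 in A549 and 1.95 in H1975, over the 21 considered of 23 listed. Library totals put these medians at 1.12 and 1.45. Of the 21 genes, 12 were shared higher and 1, the lipoprotein receptor VLDLR, was shared lower. PPP1R15A was at 28.3 and 9702 CPM in A549 and 49.9 and 1584 CPM in H1975. ATF3, a stress-induced repressor, was at 1.10 and 153 CPM in A549 and 4.74 and 116 CPM in H1975. DDIT3, which encodes CHOP, was at 3.43 and 404 CPM in A549 and 15.2 and 186 CPM in H1975. The AL-X levels of ATF3 were close in the 2 lines, while the DMSO levels were lower in A549. Single members differed in which line had the larger fold: ASNS, the asparagine synthetase, had 3.43 and 3.88, CHAC1, which degrades glutathione, 3.36 and 3.67, SLC3A2, a transporter heavy chain, 1.97 and 2.63, and MTHFD2, of mitochondrial folate metabolism, 2.78 and 1.28. The SLC3A2 partner SLC7A5 was at 1171 and 1193 CPM in A549 and 354 and 1368 CPM in H1975, so that under AL-X the lines came to like levels. SLC7A11, the cystine transporter and an NRF2 target as well, was at 452 and 68.3 CPM in A549 and 21.9 and 26.1 CPM in H1975. TRIB3, a pseudokinase, had log2 folds of 0.85 and 2.91.

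All 4 ubiquitin genes were shared higher, among them UBB at 454 and 2390 CPM in A549 and 455 and 1561 CPM in H1975. Of 31 proteasome subunit genes, all considered, 23 were shared higher and 0 lower, with medians of 1.64 and 1.26, and 0.81 and 0.76 with library totals. PSMD8, a subunit of the regulatory lid, had log2 folds of 2.73 and 2.14, and PSMC4, an ATPase of the base, 2.41 and 2.12. Against 14.5% and 10.5% of all considered genes, 7 of 25 autophagy and lysosome genes considered were shared higher and 0 lower. Their medians were 1.05 and 0.64, and members below 0 in both lines included the kinase ULK1 (-1.43 and -0.28), WIPI1 (-2.60 and -0.56) and the receptor NBR1 (-0.61 and -0.80). Among the shared higher was MAP1LC3B, which encodes LC3B, at 44.0 and 1073 CPM in A549 and 51.5 and 219 CPM in H1975. The log2 folds of the proteasome genes lay in a narrow range, 0.68 to 2.88 in A549 and 0.53, for PSMD12, to 2.14 in H1975.

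Genes for the cytosolic ribosome were shared higher in 45 of 48, with medians of 1.74 (A549) and 1.40 (H1975), which library totals put at 0.92 and 0.89. RPS28 had the largest fold, at 8.18 and 132 CPM in A549 and 20.2 and 90.7 CPM in H1975. RPLP0, a large subunit protein, was at 949.5 and 1922 CPM in A549 and 519 and 1265 CPM in H1975. The 3 uncalled genes, RPL7A, RPL15 and RPL23, missed 2-fold in 1 line by little, at 0.90 in A549 for RPL7A and at 0.95 and 0.93 in H1975 for the others. Host genes of small nucleolar RNAs, which carry these RNAs in their introns, were shared higher in 10 of 14. SNHG12 was at 8.56 and 714 CPM in A549 and 11.6 and 63.3 CPM in H1975, and ZFAS1 at 32.0 and 751 CPM and 27.3 and 160 CPM. Of 18 genes for SR splicing factors and RNA binding, CLK kinases included, 8 were shared higher, against 14.5% of all considered genes. The medians of this list were 2.16 and 0.68. SRSF7 was at 106 and 2169 CPM in A549 and 87.3 and 551 CPM in H1975, and TRA2B at 141 and 1839 CPM and 131 and 1028 CPM. Short genes were higher in general, as set out further on, and the median exonic length of the ribosomal list was 3399 bases against 5348 for all. What part length has in these lists was not tested.

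**Figure D3:**
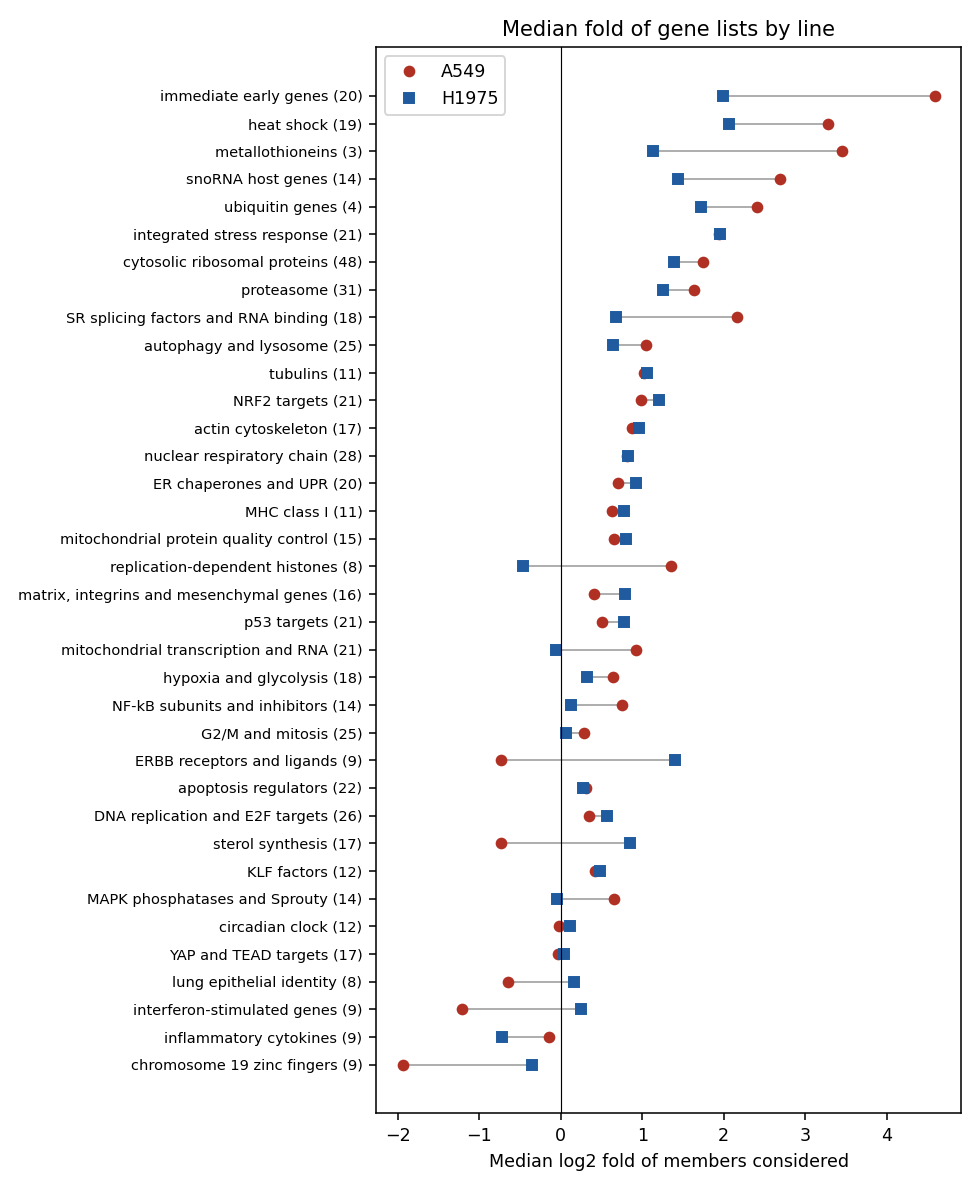
Median log2 fold of the considered members of gene lists in A549 (circles) and H1975 (squares), with the number of members considered in brackets. Lists are ordered by the mean over both lines. Mitochondrial mRNAs, cell type markers and lists with very few considered members are not drawn. Of the lists drawn, immediate early and heat shock genes lead. Sterol synthesis and ERBB genes are among those with medians of opposite sign in the 2 lines.

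Redox and stress output genes were shared in part. Of 26 NRF2 targets listed, 21 were considered, with medians of 0.99 and 1.21. Among these, 8 were shared higher and 0 shared lower, against 14.5% and 10.5% of all considered genes. HMOX1, which degrades heme, was at 208 and 2813 CPM in A549 and 245 and 2998 CPM in H1975. Its levels were close in the 2 lines with either treatment. OSGIN1 was at 63.4 and 437 CPM in A549 and 9.06 and 76.8 CPM in H1975. TXN, which encodes thioredoxin, was at 312 and 1615 CPM in A549 and 69.6 and 194 CPM in H1975. Levels of OSGIN1 and TXN with DMSO were higher in A549, a line known for mutant KEAP1, and the log2 folds were 2.79 and 3.08 for OSGIN1 and 2.37 and 1.48 for TXN. Among 21 considered p53 targets, 7 were shared higher and 1, PHLDA3, shared lower, against the same shares of all considered genes. The p53 target medians of 0.50 and 0.77 became -0.32 and 0.27 with library totals. CDKN1A, the cell cycle inhibitor p21, was at 48.1 and 2790 CPM in A549 and 36.7 and 303 CPM in H1975, PLK2, a stress kinase, at 107 and 1518 CPM and 15.3 and 313 CPM, and SESN2 had log2 folds of 4.27 and 3.69. MDM2, the p53 ligase and a target of it, was at 85.5 and 52.6 CPM in A549 and 29.3 and 8.30 CPM in H1975. HBEGF, a ligand of EGFR, was at 1.80 and 1046 CPM in A549 and 4.09 and 188 CPM in H1975. SNAI1, a repressor of epithelial genes, was at 4.51 and 2056 CPM in A549 and 23.7 and 632 CPM in H1975. CDH1, a gene it is known to repress, was at 197 and 13.1 CPM in A549 and at 525 and 564 CPM in H1975.

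RFPL4A, a gene of the early embryo, had 0 counts with DMSO and 3573 with AL-X in A549, at least 1915-fold higher against a floor of 3 counts. In H1975 it had 10 and 828 counts. It was the only 1 of 23 listed early-embryo genes to be considered, and its near-identical paralogs may share reads with it. FRG2, FRG2B and FRG2C of this list had 0 CPM with DMSO in both lines. With AL-X they reached 14.7, 34.3 and 20.5 CPM in A549. In H1975 they reached 0.885, 0.773 and 0.661 CPM, under the minimum of 5 CPM. These like-named genes may also share reads. Not every member was higher: ZSCAN4 was at 0.676 and 0.196 CPM in H1975.

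Transcripts of the mitochondrial genome were the largest shared decrease. All 13 mRNAs, which code for inner-membrane proteins of oxidative phosphorylation, were lower in both lines, and their median log2 folds were -10.18 (A549) and -8.12 (H1975). MT-CO1, the catalytic subunit of cytochrome oxidase, was at 18134 CPM with DMSO and 7.57 CPM with AL-X in A549 and at 13542 and 21.3 CPM in H1975. MT-CO3 was at 4474 and 1.10 CPM in A549 and 3603 and 4.69 CPM in H1975. DMSO levels were alike in the 2 lines, and the AL-X levels of these mRNAs were lower in A549. In bulk RNA, fewer cells holding a transcript and less of it per cell cannot be told apart. MT-ND6, alone on the light strand among the mRNAs, had the smallest fold in A549, -8.57, and -6.80 in H1975. The ribosomal RNAs, transcribed from the start of the heavy strand, had smaller folds: MT-RNR1 was at 641 and 40.8 CPM in A549 and 531 and 77.2 CPM in H1975, and MT-RNR2 at 10137 and 221 CPM and 4823 and 293 CPM. Of 22 transfer RNAs, 4 were considered and all 4 were lower in both lines. The nuclear copies MTCO1P12, MTND2P28 and MTATP6P1 on chromosome 1, which share sequence with the mitochondrial genes, had log2 folds between -10.58 and -7.99.

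Of 28 nuclear respiratory chain genes, 6 were shared higher and 0 lower, where 14.5% and 10.5% of all considered genes were, with a median of 0.82 in either line, which library totals put at -0.01 (A549) and 0.32 (H1975). COX5A, a cytochrome oxidase subunit, was at 37.1 and 221 CPM in A549 and 21.7 and 50.5 CPM in H1975. Of 21 genes for mitochondrial transcription and RNA, 3 were shared higher, near the 14.5% of all considered genes, and 0 lower, with medians of 0.93 and -0.05 (0.10 and -0.55 with library totals). TFAM, which packages and activates the mitochondrial genome, was at 72.9 and 371 CPM in A549 and 58.2 and 56.1 CPM in H1975. POLRMT, its RNA polymerase, was at 68.7 and 20.1 CPM in A549 and 59.9 and 54.2 CPM in H1975. POLG2, the accessory subunit of its DNA polymerase, was at 15.3 and 167 CPM in A549 and 13.7 and 12.2 CPM in H1975. Of 15 mitochondrial protein quality control genes, 4 were shared higher (GRPEL1, HSPD1, HSPE1 and HSPA9) and 0 lower, against 14.5% and 10.5% of all considered genes. The medians of this list were 0.65 and 0.80, which library totals put at -0.17 and 0.30. The chaperone TRAP1 (0.24 and 0.97), DNAJA3 (0.75 and 0.91) and GRPEL2 (0.42 and -0.96) were not called. GRPEL1, an exchange factor of the matrix Hsp70, was at 24.1 and 372 CPM in A549 and 31.1 and 136 CPM in H1975. HSPD1 and HSPE1 lie head to head, and their overlapping annotations include a readthrough gene.

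Outside the mitochondrial genome and its copies, BMF led the shared lower genes. BMF (ENSG00000104081, chr15:40087890-40108892), a BH3-only protein that promotes apoptosis, had 1253 counts with DMSO and 0 with AL-X in A549, at least 260-fold lower, and 1646 and 29 counts in H1975. Its level was 9.72 CPM with DMSO in A549, and 11.6 and 0.270 CPM in H1975. TTC30B, an intraflagellar transport protein, had 1549 and 0 counts in A549 (at least 321-fold lower) and 831 and 25 in H1975. PP7080, a non-coding gene overlapping SLC9A3 and EXOC3, had 702 and 0 counts in A549 (at least 146-fold lower) and 854 and 27 in H1975. In H1975 each of these 3 kept some counts with AL-X, and the log2 folds there were -5.34, -4.55 and -4.49. MIR34AHG, the host of the p53-regulated miR-34a, was at 20.1 and 0.162 CPM in A549 and 11.1 and 0.354 CPM in H1975. ETAA1, which activates the ATR kinase at stalled replication forks, was at 37.8 and 1.78 CPM in A549 and 18.8 and 0.810 CPM in H1975. CCDC71 was at 13.3 and 0.661 CPM in A549 and 10.1 and 0.540 CPM in H1975. The folds of ETAA1 and CCDC71 were nearly the same in both lines, -4.39 and -4.51 for ETAA1 and -4.29 and -4.18 for CCDC71. LINC00342, a long non-coding RNA, was at 26.1 and 0.150 CPM in A549 and 48.5 and 2.91 CPM in H1975. ZNF594, GVQW3, PPP1R3D and BCAN-AS1 completed the 14, with log2 folds from -6.26 to -4.10.

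Of 22 apoptosis regulators considered, 3 were shared higher and 4 shared lower, counts not far from the 14.5% and 10.5% of all considered genes. Their medians of 0.31 and 0.28 became -0.51 and -0.23 with library totals. MCL1, an anti-apoptotic BCL2 relative with a short-lived mRNA, was at 185 and 3763 CPM in A549 and 234 and 1670 CPM in H1975, and the BH3-only gene PMAIP1 was at 9.89 and 157 CPM and 34.2 and 118 CPM. On the lower side, CASP8, the initiator caspase of death receptors, was at 63.4 and 10.0 CPM in A549 and 57.4 and 11.2 CPM in H1975. BIRC3, an inhibitor of apoptosis and a target of NF-kB, was at 18.5 and 2.17 CPM in A549 and 8.63 and 0.307 CPM in H1975. CFLAR, which blocks CASP8, was just past the call at -1.03 and -1.04, and BMF was the fourth. The CASP8 levels of the 2 lines were close with DMSO and close with AL-X.

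Of 12 KLF transcription factors considered, 5 were shared higher and 4 shared lower, against 14.5% and 10.5% of all considered genes. The KLF medians of 0.42 and 0.49 became -0.41 and -0.02 with library totals. KLF10, a TGF-beta early gene, was at 77.6 and 1179 CPM in A549 and 54.7 and 962 CPM in H1975, and KLF4 at 8.60 and 840 CPM and 19.6 and 78.7 CPM. KLF9 was at 15.2 and 1.87 CPM in A549 and 12.9 and 0.447 CPM in H1975, and KLF7 at 50.3 and 1.82 CPM and 84.2 and 10.5 CPM. Of 14 MAP kinase phosphatase and Sprouty genes considered, 3 were shared higher and 2 shared lower, not far from the shares of all considered genes. The medians of this list, 0.65 and -0.04, were -0.18 and -0.55 with library totals. DUSP5, nuclear and specific for ERK, had log2 folds of 4.77 and 3.73, and DUSP6, its cytoplasmic counterpart, -2.37 and -4.20, while DUSP7 had 2.10 and 0.09 and DUSP16 -0.53 and -1.19. The chemokines CXCL1 and CXCL2 were shared lower, CXCL2 at 5.77 and 0.524 CPM in A549 and 6.72 and 0.0559 CPM in H1975, while the cytokine IL11 was shared higher at 6.83 and 28.3 CPM and 12.6 and 91.5 CPM. PTGS2, the inducible cyclooxygenase, was at 39.6 and 35.8 CPM in A549 and 0.782 and 14.6 CPM in H1975.

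Cell cycle lists were mostly under the call. Of 26 replication and E2F target genes, 3 were shared higher and 1 shared lower, against 14.5% and 10.5% of all considered genes. The medians of this list were 0.35 (A549) and 0.57 (H1975), which library totals put at -0.48 and 0.07. CCNE1, which encodes cyclin E1, was at 17.4 and 767 CPM in A549 and 14.3 and 115 CPM in H1975. E2F2, an activating E2F, was at 16.5 and 0.349 CPM in A549 and 12.8 and 0.913 CPM in H1975. Of 25 mitotic genes 3 were shared higher and 3 lower, counts near the 14.5% and 10.5% of all considered genes. The medians of the mitotic list, 0.28 and 0.06, became -0.54 and -0.44 with library totals. The 3 lower, ASPM, CENPE and CENPF, encode large spindle and kinetochore proteins, with CENPF at 548 and 121 CPM in A549 and 454 and 133 CPM in H1975. The 3 higher were CDK1, CDC20 and PTTG1, with log2 folds from 1.03 to 2.37.

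Shared direction went with gene length. When the 9872 considered nuclear protein-coding genes were put in 6 bins of merged exonic length, 29.8% of the shortest bin (381 to 2928 bases) and 3.10% of the longest (9183 to 44677 bases) were shared higher. The share of shared lower genes ran the other way, from 3.34% to 19.9%. Median log2 folds went from 0.87 to -1.13 in A549 and from 0.81 to -0.37 in H1975. With library totals these medians were 0.05 to -1.95 and 0.30 to -0.88, so that the order was kept and the shortest bin stayed above 0 in both lines. Spearman's rho of fold with exonic length was -0.351 in A549 and -0.392 in H1975 over 9872 genes, and with the largest number of exons in a transcript -0.233 and -0.180. Shared higher genes had a median length of 3616 bases and shared lower genes 7471. In HCC827 the bin medians ran only from 0.01 to -0.11. The mean exonic length weighted by reads was 7075 bases with DMSO and 5319 with AL-X in A549, and 7083 and 5878 in H1975, and its part in the results was not tested.

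**Figure D4:**
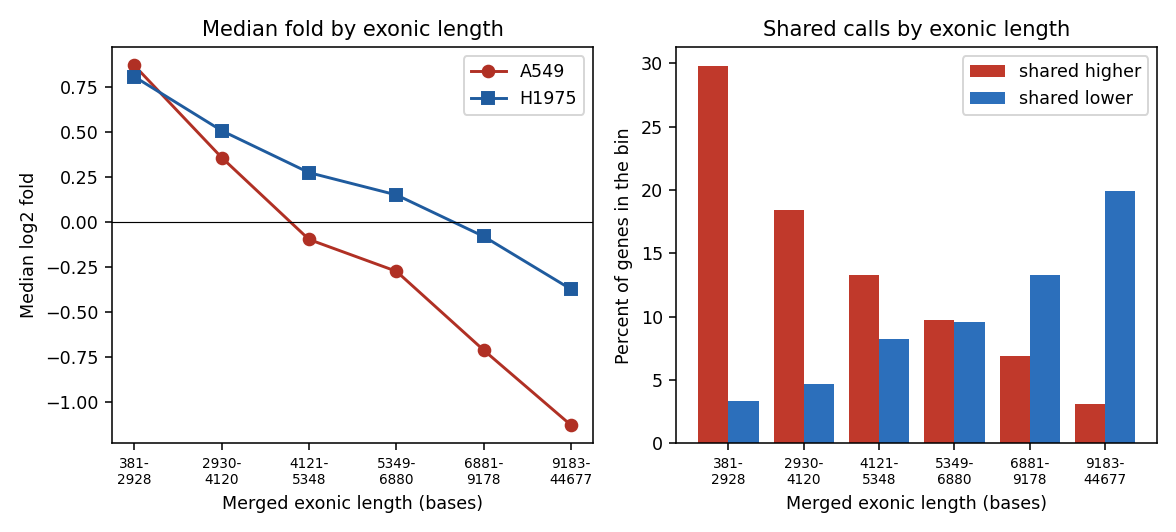
Left, median log2 fold by bin of merged exonic length for 9872 considered nuclear protein-coding genes in A549 (circles) and H1975 (squares). Right, percent of each bin that was shared higher or shared lower. The medians go down with length in both lines, from 0.87 to -1.13 in A549 and from 0.81 to -0.37 in H1975.

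Other features set the shared genes apart by count. Of 170 considered processed pseudogenes, 106 (62.4%) were shared higher, against 14.5% of all genes considered, and reads of these copies may come from their parent genes. Antisense genes were shared lower in 35 of 78 (44.9%) and long intergenic RNAs in 22 of 86 (25.6%), against 10.5% of all genes considered. Chromosome 19, rich in short genes and in zinc finger genes, had 21.8% of its 634 considered protein-coding genes shared higher against 13.6% of all. Of 30 zinc finger genes of this chromosome that were listed, 9 were considered, with medians of -1.94 in A549 and -0.35 in H1975.

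Promoters could be matched for 8331 considered genes. The letters TATAAA stood in 4.81% of these, in 8.78% of shared higher genes and in 18.8% (36 of 191) of genes at least 4-fold higher in both lines, against 11.95% of all 27305 promoters in the table. The 2.48% of considered genes that were at least 4-fold higher in both lines numbered 260, and 287 (2.74%) were at least 4-fold lower. The cAMP response element stood in 3.63% of considered, 5.41% of shared higher and 6.81% of the 4-fold genes, and in 1.98% of all promoters. The heat shock element stood in 24 of 8331 considered promoters (0.288%) and in 12 of 1127 shared higher ones (1.06%), against 0.487% of all. CArG boxes stood in 0.984% of considered, 1.95% of shared higher and 1.29% of all promoters, and a CArG box can itself hold the letters TATAAA. Shared lower genes had these motifs at 5.00% for TATAAA, 2.56% for the cAMP response element, 0.244% for the heat shock element and 0.854% for the CArG box. By list, 5 of 18 heat shock promoters held a heat shock element (HSPA6, HSPA8, DNAJA1, DNAJB6 and CHORDC1), and 5 of 19 immediate early promoters held TATAAA (FOS, FOSB, JUNB, SRF and DUSP1). The letters TGATGNAA, from the ATF4 composite site, stood in 5 of 20 integrated stress response promoters (ATF3, CHAC1, ASNS, SLC3A2 and FGF21, the last with 0 counts in all 4 libraries) and in 3.67% of all. It stood in 1.45% of considered, 2.40% of shared higher and 1.34% of shared lower promoters, and in 2.09% of those 4-fold higher and 3.08% of those 4-fold lower. The AP-1 letters TGANTCA stood in 4.01% of considered, 4.53% of shared higher and 4.76% of shared lower promoters, and the TEAD letters GGAATG in 10.4%, 10.3% and 10.2%. The antioxidant letters TGACNNNGC stood in 15.4%, 17.5% and 12.1%, and the GC box GGGCGG in 73.0%, 75.3% and 66.2%. A match of letters is a description and not a bound site.

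The lines parted at 61 genes called in opposite directions, 27 higher in A549 and lower in H1975 (0.257%) and 34 the other way (0.324%). With library totals 15 of the 61 were still opposite. Of those named in this report, these were NDUFC2-KCTD14, PPP1R10, LIPH, MVD, LINC00472, FGFR3, COL5A1, PMEPA1, NRG1 and NR4A1. PPP1R10, a regulatory subunit that holds protein phosphatase 1 in the nucleus, was at 108 and 423 CPM in A549 and 102 and 7.34 CPM in H1975. Its DMSO level was the same in both lines and its AL-X levels were far apart, with log2 folds of 1.97 and -3.79. LIPH, a phospholipase, was at 13.7 and 59.5 CPM in A549 and 17.5 and 5.94 CPM in H1975. FUT11, a fucosyltransferase, was at 22.6 and 57.6 CPM in A549 and 21.1 and 6.21 CPM in H1975. ZBTB6, BLOC1S3, FBXO32 and MIR9-1HG completed the named genes of this direction, with log2 folds of 1.30 to 1.54 in A549 and -2.44 to -1.36 in H1975. With library totals the A549 log2 folds of FUT11 (0.53), ZBTB6 (0.61), BLOC1S3 (0.52), FBXO32 (0.47) and MIR9-1HG (0.72) were under the call. NDUFC2-KCTD14, a readthrough of NDUFC2 into KCTD14, was at 0.721 and 46.2 CPM in A549 and 5.55 and 0.838 CPM in H1975, but its exons overlap those of both genes, so its reads cannot be told apart from theirs.

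Called lower in A549 and higher in H1975 were single genes of sterol synthesis and matrix, among them MVD, COL5A1 and COL7A1. MVK, MSMO1, INSIG1 and FN1 are given beside them and were not called in opposite directions. MVD, the mevalonate diphosphate decarboxylase of sterol synthesis, was at 46.0 and 12.7 CPM in A549 and 57.4 and 370.1 CPM in H1975. Of 17 considered sterol genes 3 were shared higher, IDI1 and INSIG1 among them, near the 14.5% of all considered genes. None was shared lower, against 10.5% of all, and MVD was opposite. The sterol medians were -0.73 (A549) and 0.85 (H1975), which library totals put at -1.55 and 0.35. MVK, a kinase upstream of MVD, was at 32.8 and 4.26 CPM in A549 and 20.2 and 36.5 CPM in H1975. MSMO1, a sterol demethylase, was at 55.1 and 52.2 CPM in A549 and 43.9 and 300.3 CPM in H1975. INSIG1, which retains the sterol sensor in the ER, was at 101 and 229 CPM in A549 and 149 and 896 CPM in H1975. Of 16 matrix, integrin and mesenchymal genes considered, 6 were shared higher, against 14.5% of all considered genes, and 0 were opposite. The medians of this list were 0.41 and 0.79 (-0.42 and 0.29 with library totals). COL5A1, a fibrillar collagen chain, was at 100.1 and 17.0 CPM in A549 and 58.3 and 168 CPM in H1975, and COL7A1, the anchoring fibril collagen, at 345 and 97.4 CPM and 127 and 313 CPM. FN1, fibronectin, was at 3253 and 337 CPM in A549 and 1233 and 1906 CPM in H1975. PMEPA1, an inhibitor of TGF-beta signalling, was at 150.0 and 60.6 CPM in A549 and 58.6 and 167 CPM in H1975. FGFR3, LINC00472, SH2D3A and LDLRAD3 had log2 folds of -1.80 to -1.42 in A549 and 1.31 to 2.33 in H1975.

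**Figure D5:**
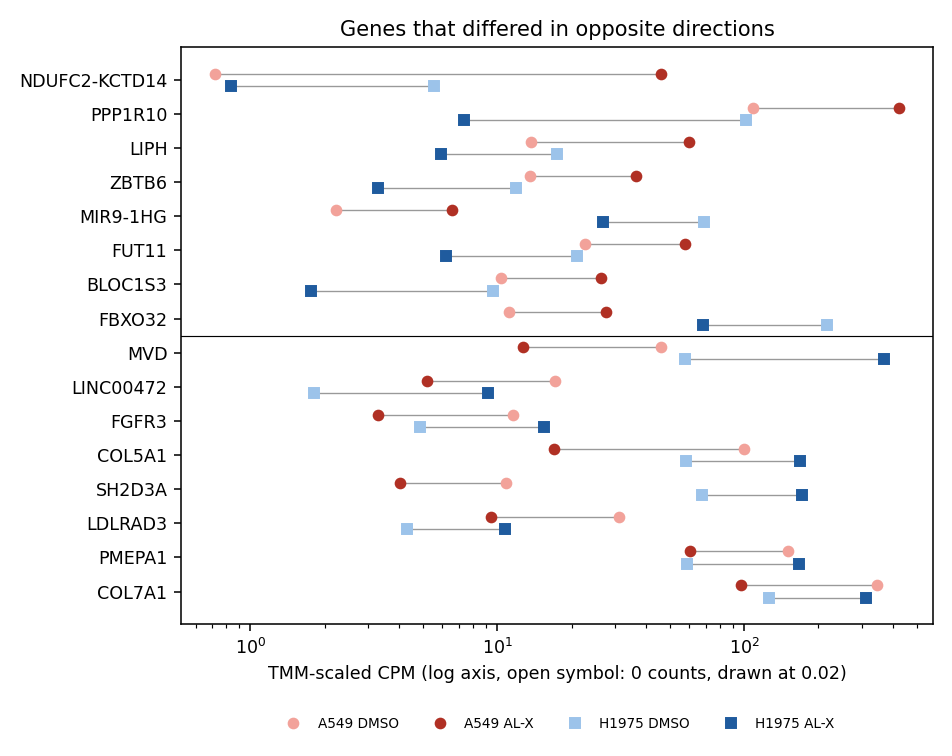
TMM-scaled CPM on a log axis for the 8 genes higher in A549 and lower in H1975 (above the line) and the 8 the other way with the largest smaller fold. Circles are A549 and squares H1975, pale for DMSO and dark for AL-X. PPP1R10 starts near 100 CPM in both DMSO libraries and ends at 423 CPM in A549 and 7.34 CPM in H1975.

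ERBB receptors and ligands also had medians of opposite sign, -0.73 in A549 and 1.40 in H1975 over 9 of 16 listed genes (-1.55 and 0.90 with library totals). Each median is the value of a single gene. In A549 it is the ligand TGFA, at -0.14 in H1975, and in H1975 it is AREG, at 3.00 in A549. Members at least 2-fold higher numbered 4 in A549 and 5 in H1975, where NRG1 was added. The ligands HBEGF, AREG and EREG and the feedback inhibitor ERRFI1 were shared higher, and the receptor ERBB3 was shared lower. EGFR, mutant in H1975, was at 301 and 32.3 CPM in A549 and 391 and 279 CPM in H1975, and ERBB2 at 82.4 and 15.0 CPM and 207 and 219 CPM. NRG1, a ligand of ERBB3, was the 1 gene called in opposite directions, at 76.3 and 37.5 CPM in A549 and 13.1 and 46.8 CPM in H1975. ITGA2, an integrin chain, was at 72.4 and 3.35 CPM in A549 and 232 and 131 CPM in H1975. Interferon-stimulated genes had medians of -1.21 and 0.25 (-2.03 and -0.25 with library totals).

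More genes were called in a single line than in both: 1288 were higher and 2226 lower in A549 with under 2-fold in H1975, and 459 and 265 in H1975 with under 2-fold in A549. A further 3572 were under 2-fold in both. CYP24A1, the enzyme that inactivates vitamin D, was at 969 and 9.50 CPM in A549 and 18.5 and 21.1 CPM in H1975. VEGFA, the vascular growth factor, was at 82.4 and 778 CPM in A549 and 379.6 and 367 CPM in H1975. RDH10, a retinol dehydrogenase, was at 33.9 and 382 CPM in A549 and 22.6 and 22.9 CPM in H1975. Of these, CYP24A1 and VEGFA had DMSO levels that were far apart in the 2 lines, and RDH10 did not. HS6ST1, a heparan sulfate sulfotransferase, was at 77.9 and 2.18 CPM in A549 and 26.7 and 29.2 CPM in H1975. ZNF469, CCDC57, RAP1GAP2 and LHFPL2 were likewise lower in A549 with log2 folds from -6.38 to -4.07, and ARID4A, ZFYVE1 and CBLL1 higher with 3.06 to 3.48. In H1975, AHR, the aryl hydrocarbon receptor, was at 109 and 16.9 CPM and in A549 at 52.7 and 48.6 CPM. NORAD, a non-coding RNA that binds Pumilio proteins, was at 358 and 76.6 CPM in H1975 and 447 and 535 CPM in A549. VHL, the ligase subunit that marks HIF for decay, was at 43.6 and 14.1 CPM in H1975 and 60.5 and 72.1 CPM in A549. RB1CC1, a subunit of the autophagy-starting kinase, and CLDN12 and ZBTB10 were also lower in H1975, with log2 folds of -2.48 to -1.95. EPHX1, PRSS23, FBRSL1 and ZMYND19 were higher there by 1.60 to 1.73.

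HCC827 under the same dose and time had median log2 folds of 0.26 at the shared higher and -0.49 at the shared lower genes. The genes were picked for their folds in A549 and H1975, which puts A549 and H1975 on an unequal footing with HCC827. Of the 1412 shared higher genes that could be considered there, 281 (19.9%) were at least 2-fold higher and 67 (4.75%) lower, where 9.21% of 10112 genes were higher and 13.7% lower. Of 1050 shared lower genes, 327 (31.1%) were lower and 51 (4.86%) higher. On the scale of all 6 libraries, FOSB had a log2 fold of 3.25 in HCC827, FOS 1.89, HSPA6 0.92, EGR1 0.05 and SGK1 -0.68. Whether HCC827 differs from the other lines was not tested.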

How the data were processed

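The deposited table holds raw integer counts for 60671 Ensembl genes. RNA was isolated with Trizol and the library kit was SureSelect XT HS2 mRNA, per the labels' protocols. The submitters' processing notes name bcl2fastq 2.20 and GRCh38. Not given in the sources used here are the aligner, counter, annotation, strand setting, and whether molecular barcodes were used. Reads of overlapping or antisense genes, and of near-identical copies, therefore cannot be told apart.

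The 4 libraries of A549 and H1975 were scaled by TMM in edgeR 4.0.16 (R 4.3.3), and log2 folds of CPM used a prior count of 2. Calls needed 2-fold, and 5 CPM or more in one library of each line. Library totals of 104648304 to 121552821 counts set the counting error, given as exact binomial 95% intervals. Where a library had 0 counts, a bound was taken against 3 counts. Counts may include copies of one molecule. The paired fit used filterByExpr and robust shrinkage at an adjusted p of 0.05. Libraries were paired by the cell line in the labels; the deviations of the 2 libraries of a line from their treatment means had a correlation of 0.496. The labels name no cultures or batches.

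The members, gene lists and rules were chosen with earlier results of these data known. The text names the 14 shared higher and 14 shared lower genes with the largest smaller fold, 8 in each opposite direction, 6 per line and direction with under 0.3 log2 units in the other line and at least 20 CPM, and, per list, up to 3 of the highest and 3 of the lowest. Genes of the heat shock, immediate early and integrated stress response lists were named for their promoters. CFLAR, TFAM, PSMD12, RPL15, RPL23, HSPA9, CDC20, EREG, NRG1, TXN, TRAP1, DNAJA3, DUSP7 and DUSP16 were chosen after their values were seen. So were FRG2, FRG2B, FRG2C, ZSCAN4 and TGFA. Of the gene rows, 60401 matched a symbol and 58453 GENCODE release 29. Promoters came from RefSeq, and 9 motifs were searched on both strands.

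Alternatives were library totals, DESeq2 size factors, mitochondrial genes left out before TMM, other CPM minimums, folds and prior counts, HCC827 added, no filter, no robust shrinkage, no line block, DESeq2 1.42.0, and limma 3.58.1 with voom. The fits were tested on simulated counts.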

Additional observations from a re-analysis of the deposited data

Results flagged for a closer look

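The 16 named genes with opposite directions in the 2 lines are given here by their log2 fold in A549 minus that in H1975. With 1 library per line and treatment none of these differences was tested. Higher in A549 and lower in H1975 were NDUFC2-KCTD14 (8.67), PPP1R10 (5.76), BLOC1S3 (3.78), LIPH (3.67), ZBTB6 (3.28), FUT11 (3.11), FBXO32 (2.97) and MIR9-1HG (2.90). Lower in A549 and higher in H1975 were MVD (-4.55), COL5A1 (-4.08), LINC00472 (-4.05), FGFR3 (-3.47), COL7A1 (-3.13), LDLRAD3 (-3.03), PMEPA1 (-2.81) and SH2D3A (-2.77). The genes were chosen for these folds, so their size is a description. With library totals, FUT11, ZBTB6, BLOC1S3, FBXO32, MIR9-1HG, COL7A1, SH2D3A and LDLRAD3 were no longer called in opposite directions. BLOC1S3 overlaps MARK4, PPP1R10 overlaps MRPS18B and COL5A1 overlaps its antisense gene, and reads of such pairs cannot be told apart.

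For 2 gene lists the median log2 fold lay on opposite sides of 0 in the 2 lines and at least 0.5 from it in each. The A549 median minus the H1975 median was -2.13 for ERBB receptors and ligands and -1.58 for sterol synthesis, and neither difference was tested. Both kept opposite signs with library totals. The ERBB medians are the values of single genes, TGFA in A549 and AREG in H1975. NRG1 was the 1 ERBB member at least 2-fold higher in H1975 only. Few single members were called in opposite directions. Of 9 considered ERBB genes, 4 were shared higher, 1 shared lower and 1 opposite. Of 17 considered sterol genes, 3 were shared higher, 0 shared lower and 1 opposite. Of all considered genes, 14.5% were shared higher, 10.5% shared lower and 0.581% opposite.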

How the results depend on the processing

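Of 983 alternative values for 38 gene lists and 277 genes, 0 reversed a call. Many of these values came from leaving out 1 line, which gives the fold of the other line alone. For genes called alike in both lines such a value could not reverse, so the 0 does not measure robustness. A change of sign under the call was not counted as reversed, such as 0.56 to -0.10 with library totals for mitochondrial transcription and RNA. The counts of genes moved more. With library totals, shared higher genes numbered 548 and shared lower genes 2289, and the paired fit called 81 higher and 113 lower. All 548 were also shared higher under TMM, all 1102 genes shared lower under TMM were so with library totals, and 15 of the 61 opposite genes were opposite under both. With library totals 121 of the values for lists and genes moved and 194 did not, and list medians that the report prints and that change sign are given there with both values. At 4-fold there were 260 shared higher, 287 shared lower and 1 opposite gene. A minimum of 1 CPM gave 1856 shared lower and 129 opposite genes, and 20 CPM gave 507 and 31. Adding HCC827, which also changes the TMM scaling to that of 6 libraries, gave 273 genes higher and 353 lower in all 3 lines, and 20 and 32 in the fit. The paired fit, main 127 and 57, called 738 and 909 with DESeq2 size factors, 76 and 9 without mitochondrial genes, 51 and 25 without a filter, 1272 and 1365 by DESeq2 and 786 and 731 by limma-voom. With no replicate block for the line, edgeR called 0 and 0 genes, 1064 and 950 at an unadjusted p under 0.05, against 1822 and 2374 in the paired fit. The cause of these differences was not tested. Leaving out a line gives no shared count and leaves no residual degree of freedom for the paired fit. Counting depth limits few genes named, chiefly those with under 10 counts in a library.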
